A study of Mus musculus with 7 samples.

Results

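The guanylate binding protein (GBP) genes Gbp2, Gbp3, Gbp4, Gbp5, Gbp6, Gbp7, Gbp8 and Gbp9 were examined in 7 mouse pancreatic ductal adenocarcinoma (PDA) tumors. They are the 8 rows, of 38026 genes in the deposited table, whose symbol is one of these names. RNA was sequenced from subcutaneous tumors grown from a cell line derived from a pancreatic tumor of a genetically engineered mouse. The cells carried SpCas9 and either a scrambled guide (4 sgScramble tumors, numbered 1 to 4) or a guide that targets Krt19, the gene of the epithelial keratin KRT19 (3 sgKRT19 tumors, numbered 5, 6 and 8). The question was how tumors whose cancer cells were edited at Krt19 differ from control tumors, and the GBP genes are read here as a part of that comparison.

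All 7 tumors shared the genotype of that line, which includes a mutant Trp53 allele (R172H) behind a lox-stop-lox cassette, turned on by Cre from the Pdx1 promoter. The hosts were C57BL/6 mice, bought at 6 weeks of age and housed for 2 weeks before use, and their immune systems were intact. The sources used here name no drug for these tumors, which were taken 2 weeks after inoculation. The study names 3 guides against Krt19 and describes both puromycin-selected polyclonal lines and single-cell clones. The labels do not say which guide or which kind of line formed these tumors. Nor do they say which libraries were prepared together, so p-values measure the spread between these tumors only.

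GBPs are large GTPases of the cell-autonomous defense against intracellular bacteria and protozoa. Their genes are among the most strongly induced targets of interferon gamma: its receptor acts through JAK kinases on factors that bind gamma-activated sequences (GAS), and interferon regulatory factors bind interferon-stimulated response elements (ISRE). GBP proteins assemble on pathogen membranes, help to break them open, and promote inflammasome activation. Both leukocytes and epithelial cells can express them.

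In the mouse genome (GRCm38, GENCODE M21) the members lie in a pair of clusters. Gbp5 (chr3:142493978-142522344), Gbp7 (chr3:142530342-142550149), Gbp3 (chr3:142560026-142573209) and Gbp2 (chr3:142620602-142638008) lie on the plus strand of chromosome 3. Gbp8 (chr5:105014150-105139540), Gbp9 (chr5:105077630-105139539), Gbp4 (chr5:105115767-105139586) and Gbp6 (chr5:105270702-105293698) lie on the minus strand of chromosome 5. Gbp4, Gbp8 and Gbp9 begin at almost the same place and share 60 or 61 exon bases. All 8 are annotated as protein coding. Their values are normalized read counts, and whether reads were counted over exons only is not given in the sources used here.

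Promoters are shown because the members moved together and interferon-responsive elements are defined by their letters. RefSeq entries (GRCm38.p6, plus strand) were found for 4 of the 8 members, Gbp2, Gbp3, Gbp5 and Gbp7, and none for Gbp4, Gbp6, Gbp8 and Gbp9. Each line holds the 250 bases before an annotated start, namely chr3:142496684-142496933 for Gbp5, chr3:142530086-142530335 for Gbp7, chr3:142559794-142560043 for Gbp3 and chr3:142620413-142620662 for Gbp2. Capitals mark matches, on either strand, to the GAS letters TTCNNNGAA or to ISRE, written as GAAA, any 2 bases and GAAA, which reads TTTC, 2 bases and TTTC on the other strand.
Gbp5 promoter: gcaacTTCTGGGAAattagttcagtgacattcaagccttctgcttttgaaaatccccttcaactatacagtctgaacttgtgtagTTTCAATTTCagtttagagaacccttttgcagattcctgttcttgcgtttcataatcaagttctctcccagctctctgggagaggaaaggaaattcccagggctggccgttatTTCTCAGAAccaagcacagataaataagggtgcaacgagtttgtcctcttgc
Gbp7 promoter: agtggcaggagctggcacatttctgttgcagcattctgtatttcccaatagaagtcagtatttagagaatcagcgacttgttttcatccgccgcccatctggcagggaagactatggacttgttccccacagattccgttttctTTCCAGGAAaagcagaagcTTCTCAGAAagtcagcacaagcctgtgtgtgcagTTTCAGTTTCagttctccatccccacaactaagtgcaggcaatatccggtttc
Gbp3 promoter: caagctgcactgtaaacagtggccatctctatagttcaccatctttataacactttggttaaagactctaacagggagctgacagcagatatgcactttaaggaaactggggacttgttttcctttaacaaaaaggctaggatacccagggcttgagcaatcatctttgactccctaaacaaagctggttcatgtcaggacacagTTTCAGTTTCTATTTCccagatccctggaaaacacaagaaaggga
Gbp2 promoter: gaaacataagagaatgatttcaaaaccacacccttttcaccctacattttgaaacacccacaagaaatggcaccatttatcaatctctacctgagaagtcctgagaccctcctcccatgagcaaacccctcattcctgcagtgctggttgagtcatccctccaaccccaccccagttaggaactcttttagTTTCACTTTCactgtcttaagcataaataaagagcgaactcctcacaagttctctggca

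An ISRE match stood in all 4 of these promoters. It began 165 bases before the start in Gbp5, 53 in Gbp7, 45 and 39 (an overlapping pair) in Gbp3, and 59 in Gbp2. GAS matches stood in Gbp5, at 245 and 52 bases, and in Gbp7, at 106 and 87 bases, and none was found in this window of Gbp2 or Gbp3. Over all 32851 promoters of the same length, 2.98% held an ISRE match, 7.02% a GAS match and 0.332% both. A second Gbp3 entry, chr3:142560106-142560355, held neither. The Gbp5 window and the second Gbp3 window lie inside the longer GENCODE gene models. The printed Gbp3 window and the Gbp2 window run into theirs at the end, and the ISRE match of Gbp2 lies in that overlap. A match is a run of letters and was not tested as a binding site.

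The members fell into groups by coding sequence that only in part followed the chromosomes. Gbp4, Gbp6, Gbp8 and Gbp9 were 90.2% to 92.9% identical over aligned coding bases in their 6 pairs. Gbp3 and Gbp7 were 78.6% identical to each other and 72.9% to 75.9% identical to the chromosome 5 members. Gbp2 and Gbp5 were 72.1% identical to each other and 64.2% to 66.3% identical to all other members. Outside the 8, Gbp10 was 98.4% identical to Gbp6, and Gbp2b was 82.5% identical to Gbp2.

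**Figure D1:**
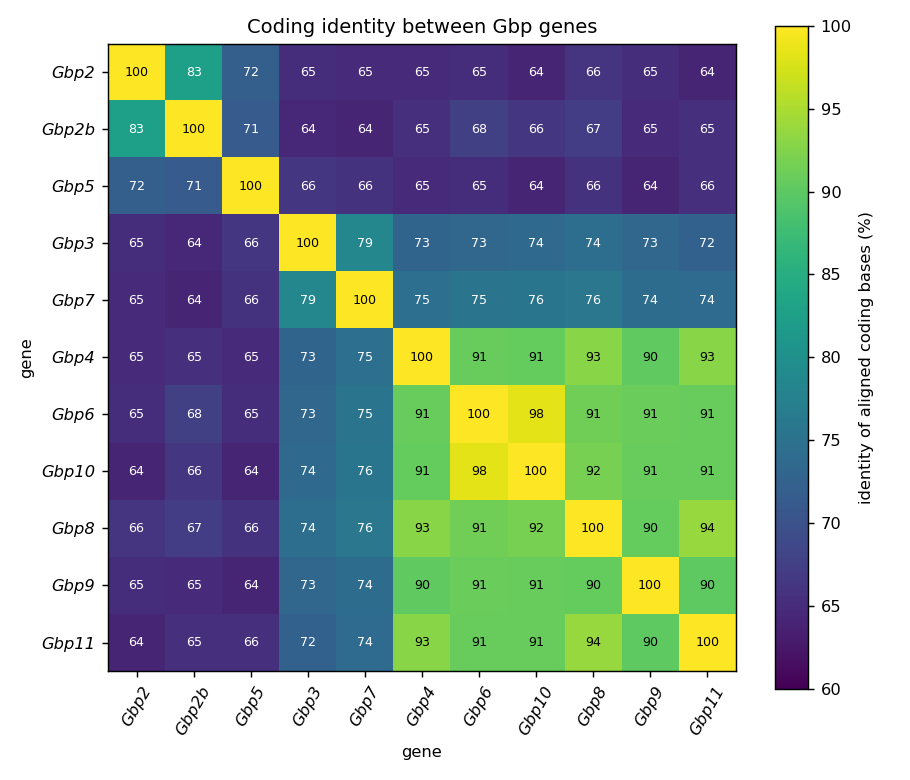
Identity of aligned coding bases (%, color scale and cell text) between each pair of 11 Gbp genes, with genes on both axes. Gbp4, Gbp6, Gbp8 and Gbp9 form a block at 90.2% to 92.9%, Gbp6 and Gbp10 stand at 98.4%, and Gbp2 and Gbp5 stand at 64.2% to 66.3% with the other members.

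Such likeness limits how well reads can be assigned. Of the 76-base stretches of each gene's transcripts, the length of a read, 0.535% of Gbp5, 0.915% of Gbp2, 2.00% of Gbp3, 2.98% of Gbp4, 3.47% of Gbp9 and 7.87% of Gbp8 also occurred in another gene. The share was 11.2% for Gbp7, mainly with the overlapping model Gm43802, and 67.2% for Gbp6, mainly with the overlapping model Gm43302. Gm43302 shares 29.0% of the exon bases of Gbp6, and its value was 87.2% to 90.6% of that of Gbp6 in every tumor. Gbp6 is therefore uncertain as a single gene, and Gbp2, Gbp3, Gbp4 and Gbp5 shared few such stretches with other genes.

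The libraries held 40781199 to 44972100 reads. Values are normalized read counts, reads per gene divided by a size factor of the library, and every member lay above the floor of 3 reads (a value of 2.74 to 3.47) in every tumor. Krt19 was 17841 to 27618 in sgScramble tumors and 1606 to 2470 in sgKRT19 tumors, in the direction of the labels. The carcinoma genes Cdh1, Krt8 and Krt18 were high in every tumor, whereas Epcam ranged from 322 to 1588. Skeletal muscle genes stood apart: the sum of Acta1, Ckm and Myh4 was 21.7, 23.2, 30.6 and, in sgScramble 3, 1274 in sgScramble tumors, and 9568 to 16283 in sgKRT19 tumors. B cell genes summed to no more than 36.6 in any tumor.

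The GBP genes were higher in sgKRT19 tumors. Of the 8 members, 7 rose (limma on log2 values, Benjamini-Hochberg adjusted p under 0.05), 0 fell, and the exception was Gbp9. Over all 21322 genes tested, 17.9% were called higher, 16.0% lower and 34.0% in either direction. With edgeR (quasi-likelihood, recovered whole reads) 7 members were also called higher, beside 17.3% of all genes. The median log2 fold change of the members was 1.43, beside 0.0072 over all genes tested. The same 7 members had groups that did not overlap, beside 21.7% of all genes not overlapping and higher in sgKRT19. Of the 7, 6 at least doubled (Gbp2 to Gbp7), a call with a background of 6.13%. Against a fold change of 1.5 itself, 3 members passed (Gbp2, Gbp3 and Gbp6; limma's fold-change test), beside 3.41% of all genes. In bulk tumors, a gain in the number of cells expressing a gene and a gain in its RNA per cell cannot be told apart.

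**Figure D2:**
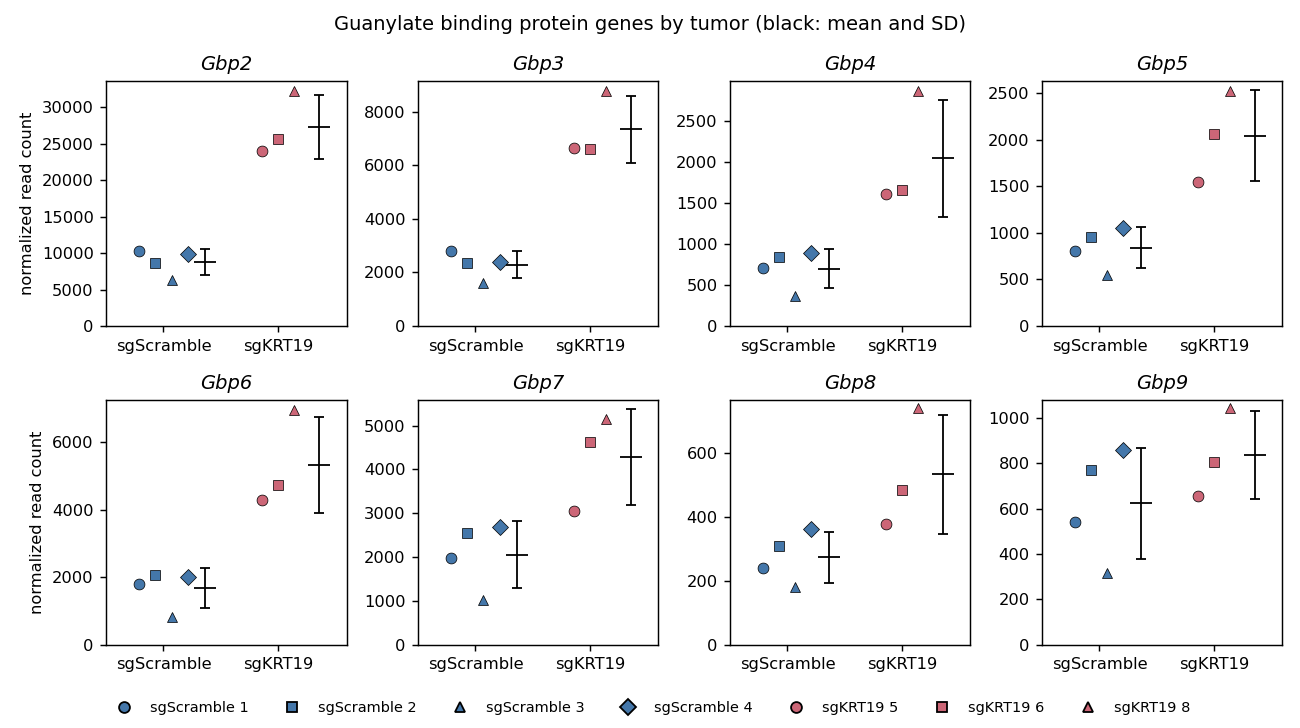
Normalized read counts (vertical axes, linear from 0, 1 scale per gene) of the 8 members in 4 sgScramble tumors (blue) and 3 sgKRT19 tumors (red), 1 point per tumor with the mean and SD in black. The groups do not overlap for any member except Gbp9, sgScramble 3 is the lowest sgScramble tumor and sgKRT19 8 the highest sgKRT19 tumor in all 8.

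Gbp2, known for its recruitment to the vacuole of Toxoplasma and to cytosolic bacteria, had the most reads of the family. Its normalized read count was 10220, 8615, 6283 and 9934 in sgScramble tumors 1 to 4 and 23934, 25620 and 32262 in sgKRT19 tumors 5, 6 and 8. The lowest sgKRT19 tumor was thus above every sgScramble tumor by a wide margin. Mean values were 8763 ± 1795 (SD, n = 4) in sgScramble tumors and 27272 ± 4403 (SD, n = 3) in sgKRT19 tumors. This is a log2 fold change of 1.65 with a standard error of 0.184 (adjusted p = 0.000206 in limma).

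Gbp3, whose deletion together with the rest of the chromosome 3 cluster weakens control of Toxoplasma, followed Gbp2 closely. Its normalized read count was 2784, 2362, 1601 and 2403 in sgScramble tumors and 6628, 6596 and 8783 in sgKRT19 tumors. The groups were as clearly apart as for Gbp2, and the log2 fold change was 1.70 with a standard error of 0.185 (adjusted p = 0.000187 in limma).

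Gbp5, which promotes NLRP3 inflammasome assembly and acts with Gbp2 in the response to cytosolic Francisella, rose less. Its normalized read count was 803, 959, 546 and 1057 in sgScramble tumors and 1548, 2057 and 2523 in sgKRT19 tumors. No sgKRT19 tumor fell into the sgScramble range. The log2 fold change was 1.29 with a standard error of 0.231 (adjusted p = 0.00246 in limma).

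Gbp7, which binds subunits of the phagocyte NADPH oxidase and autophagy proteins, had the largest standard error of its log2 fold change among the chromosome 3 members. Its normalized read count was 1969, 2555, 1006 and 2683 in sgScramble tumors and 3048, 4629 and 5158 in sgKRT19 tumors. The highest sgScramble and the lowest sgKRT19 tumor lay close together without overlapping. The log2 fold change was 1.12 with a standard error of 0.315 (adjusted p = 0.0212 in limma). The call was lost without sgKRT19 6 (1.05, adjusted p = 0.0658), without sgKRT19 8 (0.97, adjusted p = 0.0773), under scaling by library size only (0.90, adjusted p = 0.0561) and in limma without a trend (adjusted p = 0.0531).

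Of the 4 members on chromosome 5, Gbp6 and Gbp4 had the higher fold changes. Gbp6, among the GBPs found to limit mycobacteria and Listeria in macrophages, had normalized read counts of 1810, 2076, 817 and 2015 in sgScramble tumors and 4290, 4739 and 6963 in sgKRT19 tumors. Every sgKRT19 tumor was above every sgScramble tumor, and the log2 fold change was 1.72 with a standard error of 0.305 (adjusted p = 0.00235 in limma).

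Gbp4 had normalized read counts of 711, 835, 367 and 886 in sgScramble tumors and 1607, 1657 and 2858 in sgKRT19 tumors. A pair of sgKRT19 tumors was nearly equal, sgKRT19 8 lay far above them, and the groups did not overlap. The log2 fold change was 1.57 with a standard error of 0.304 (adjusted p = 0.00381 in limma).

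Gbp8 and Gbp9 showed the smallest differences. Gbp8 had normalized read counts of 239, 310, 182 and 364 in sgScramble tumors and 378, 484 and 740 in sgKRT19 tumors. Its groups were barely apart, with sgKRT19 5 just above sgScramble 4. The log2 fold change was 0.95 with a standard error of 0.271 (adjusted p = 0.0223 in limma), and the call was lost without sgKRT19 8 (0.69, adjusted p = 0.0856) and under scaling by library size only (0.74, adjusted p = 0.0745).

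Gbp9 had normalized read counts of 542, 772, 318 and 859 in sgScramble tumors and 657, 806 and 1045 in sgKRT19 tumors. sgScramble 2 and 4 lay above sgKRT19 5, so the groups overlapped. The log2 fold change was 0.50 (95% interval -0.19 to 1.18, limma adjusted p = 0.229), which leaves room for a rise of the size seen in Gbp7 as well as for none. Without sgScramble 3 it was 0.21, and without sgScramble 4 it was 0.68.

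**Figure D3:**
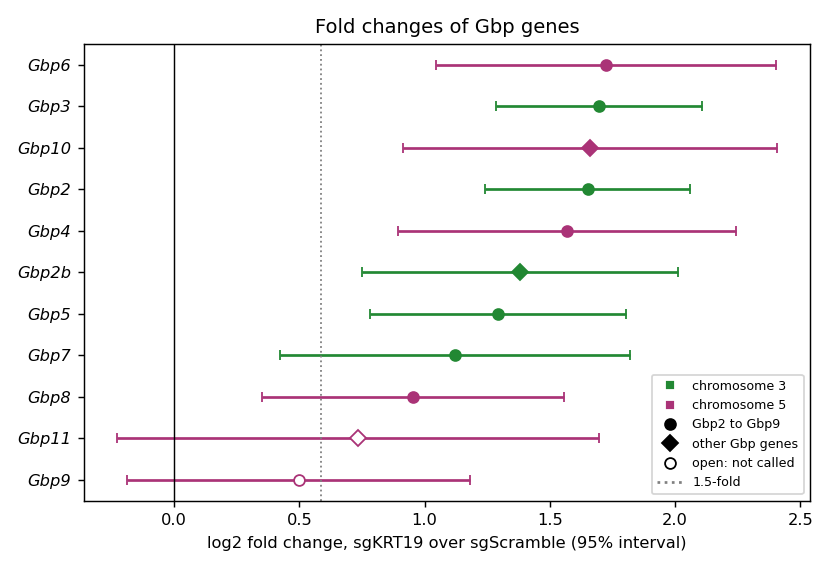
Log2 fold change of sgKRT19 over sgScramble tumors (horizontal axis) with its 95% interval for 11 Gbp genes (vertical axis), colored by chromosome; circles are Gbp2 to Gbp9, diamonds the other Gbp genes, and open symbols were not called. Gbp6 stands highest at 1.72 and Gbp9 lowest at 0.50, and only the intervals of Gbp9 and Gbp11 cross 0.

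Members with close copies were also summed and fitted as 1 row, an alternative chosen after seeing the data. The 6 chromosome 5 genes Gbp4, Gbp6, Gbp8, Gbp9, Gbp10 and Gbp11 together had a log2 fold change of 1.49 with a standard error of 0.306 (adjusted p = 0.00515 in limma). Gbp3 with Gbp7 had 1.45 (SE 0.230, limma adjusted p = 0.00129). A sum weights its members by reads, so Gbp9 and Gbp8 count for little in the first.

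Of the 3 other Gbp genes that could be tested, 2 rose, and Gbp2-ps was too low to be tested. Gbp10, a close copy of Gbp6, had normalized read counts of 828, 970, 355 and 1003 in sgScramble tumors and 1814, 2153 and 3165 in sgKRT19 tumors. It rose (log2 fold change 1.66, limma adjusted p = 0.00481). Of its 76-base stretches, 77.6% also occurred in another gene, mainly the overlapping model Gm43302. Gbp10, like Gbp6, is therefore uncertain as a single gene, and the 2 rises may not be separate. Gbp2b, encoding the protein long known as mouse GBP1, was far lower in level and rose as well (1.38, limma adjusted p = 0.00516). Gbp11, annotated as a polymorphic pseudogene, had 0.73 (limma adjusted p = 0.209) and its groups overlapped.

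Level was compared between members per kilobase of merged exons, which takes the reads to be counted over exons. Gbp2 stood first in both groups, with 3483 ± 713 normalized reads per kilobase in the 4 sgScramble tumors (mean ± SD) and 10840 ± 1750 in the 3 sgKRT19 tumors. Gbp3 was second, at 701 and 2247 normalized reads per kilobase. Neither range overlapped that of the next gene in either group. On the coding transcript alone the ranges of Gbp3 and Gbp6 overlapped in both groups. Within tumors, Gbp3 was still above Gbp6 in 4 of 4 sgScramble and 3 of 3 sgKRT19 tumors.

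Below these the order held in every tumor for some neighbors only. In sgScramble tumors the mean levels per kilobase were 366 for Gbp7, 282 for Gbp6, 127 for Gbp5, 120 for Gbp9, 93.4 for Gbp4 and 79.5 for Gbp8. The ranges of each of these neighbors overlapped across tumors. Within tumors, Gbp7 was above Gbp6, Gbp6 above Gbp5 and Gbp9 above Gbp4 in 4 of 4. Gbp5 was above Gbp9 in 2 of 4, and Gbp4 above Gbp8 in 3 of 4. In sgKRT19 tumors they were 895 for Gbp6, 762 for Gbp7, 308 for Gbp5, 272 for Gbp4, 162 for Gbp9 and 155 for Gbp8. There Gbp7 stood clear of Gbp5, and Gbp4 clear of Gbp9, whereas Gbp6 with Gbp7, Gbp5 with Gbp4, and Gbp9 with Gbp8 overlapped. In each of these overlapping pairs the first was above the second in 2 of 3 tumors. Measured on the coding transcript alone, Gbp6 came before Gbp7 in both groups, Gbp4 before Gbp9 in sgScramble and Gbp8 before Gbp9 in sgKRT19.

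The share of each member in the sum of the 8 members was also compared, leaving out Gbp2b, Gbp10 and Gbp11. Of the summed level per kilobase of the 8 members, Gbp2 held 66.7% ± 3.28 in the 4 sgScramble tumors and 69.4% ± 1.12 in the 3 sgKRT19 tumors (mean ± SD). Gbp3 held 13.4% ± 0.919 and then 14.4% ± 0.631, and Gbp7 held 6.80% ± 1.59 and then 4.85% ± 0.802, with overlapping groups. Gbp9 held 2.24% ± 0.575 and then 1.03% ± 0.0746, and Gbp8 held 1.51% ± 0.256 and then 0.973% ± 0.166. For Gbp8 and Gbp9, every sgKRT19 tumor was below every sgScramble tumor. For Gbp8 this was only just so, with 1.15% in sgKRT19 8 and 1.16% in sgScramble 1.

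Whether members differed from Gbp2 in their change was examined within tumors, by the log2 difference of each member from Gbp2. This comparison was chosen after the values were seen. The difference moved by -1.15 for Gbp9 and by -0.70 for Gbp8 from sgScramble to sgKRT19, with no overlap of the groups. With 4 against 3 tumors an exact two-sided permutation test cannot give less than 0.0571 (35 splits), which is the value of both, and the adjusted p over 7 members was 0.2. Gbp7 differed by -0.53 and Gbp5 by -0.36 (exact permutation p = 0.114 each), while Gbp3, Gbp4 and Gbp6 differed by 0.045, -0.084 and 0.072. With that lower limit of the permutation test, none could pass a threshold of 0.05.

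The 8 members varied together from tumor to tumor. sgScramble 3 was the lowest sgScramble tumor for 8 of 8 members, as it was for 24.4% of all genes tested, and sgKRT19 8 was the highest sgKRT19 tumor for 8 of 8, as it was for 28.8%. Both held for 6.2% of all genes tested. Averaged over the members, the centered log2 value was -0.48, -0.30, -1.27 and -0.19 in sgScramble 1 to 4 and 0.44, 0.68 and 1.12 in sgKRT19 5, 6 and 8. Gbp5 lay closest to this mean profile (root mean square distance 0.080 on the log2 scale over 7 tumors) and Gbp9 farthest (0.424). Leaving out sgScramble 3 kept 7 members called, and leaving out sgKRT19 8 kept 5.

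Outside the family, genes with the most similar profile were taken by the same distance from 15505 genes. Among the nearest 5 were Ifi203 (0.088), an interferon-inducible DNA-binding protein gene, Oasl2 (0.141), a 2'-5' oligoadenylate synthetase-like gene, Ddx60 (0.176), an interferon-inducible helicase gene, and H2-Q5 (0.192), a nonclassical MHC class I gene. Their log2 fold changes were 1.29, 1.29, 1.26 and 1.48, and all 4 were called higher. The distance includes the difference between groups, so such a list favors genes with a fold like that of the members.

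**Figure D4:**
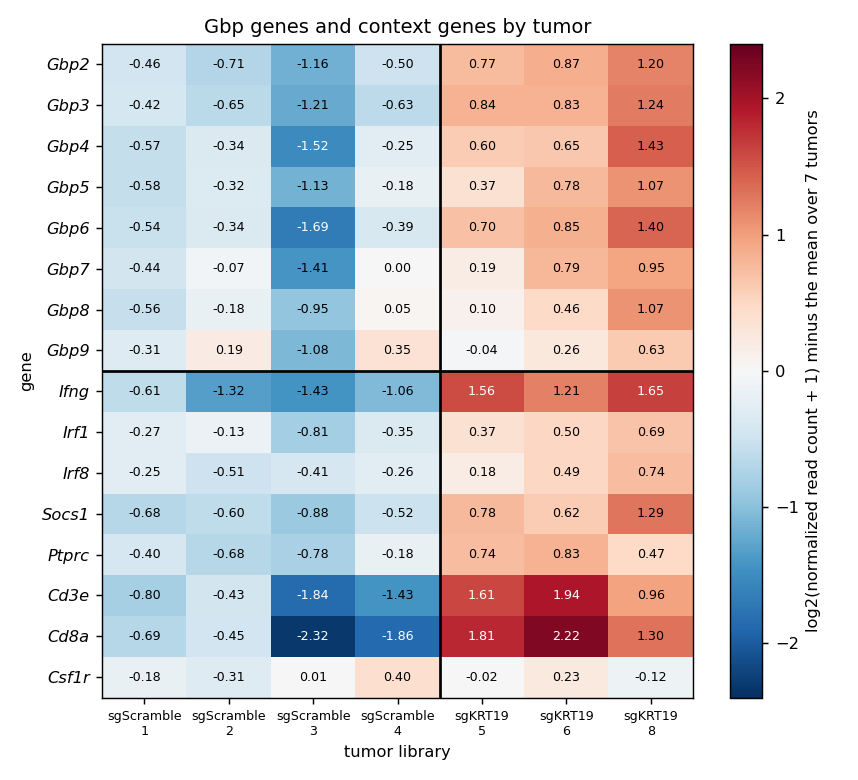
Log2(normalized read count + 1) minus the gene's mean over 7 tumors (color and cell text) for the 8 members (upper block) and 8 context genes (lower block), with tumors on the horizontal axis. sgScramble 3 holds the lowest value of every member and sgKRT19 8 the highest, whereas Cd3e and Cd8a are highest in sgKRT19 6.

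Of the ligands, Ifng, the gene of interferon gamma, had normalized read counts of 40.9, 24.7, 22.8 and 29.7 in sgScramble tumors and 187, 147 and 200 in sgKRT19 tumors. Its lowest value was in sgScramble 3 and its highest in sgKRT19 8, but sgScramble 2 and sgKRT19 5 lay close to these. Such small gaps do not settle the order of the tumors for Ifng. Its log2 fold change was 2.57 with a standard error of 0.248 (adjusted p = 9.7e-05 in limma). Ifnb1 was too low to be tested. Of 7 receptor and kinase genes, Ifngr1 rose (0.49, limma adjusted p = 0.0124), and Ifngr2, Ifnar1, Ifnar2, Jak1, Jak2 and Tyk2 were not called, at -0.16 to 0.21. Under scaling by library size only, 0 of the 7 were called higher.

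Among the transcription factors, 3 of 5 rose. Irf1, which binds ISRE, had normalized read counts of 4762, 5220, 3260 and 4498 in sgScramble tumors and 7429, 8097 and 9261 in sgKRT19 tumors (log2 fold change 0.91, limma adjusted p = 0.00236). Irf8 had 0.83 and Irf9 0.44, and Stat2 (0.56) and Irf2 (0.18) were not called. The count was 2 of 5 under scaling by library size only, without a trend and without sgScramble 3, sgScramble 4, sgKRT19 5 or sgKRT19 8. Of 4 inhibitors of the pathway, Socs1 (1.57) and Usp18 (1.27), which are themselves induced by interferons, rose, and Socs3 (0.11) and Ptpn2 (0.0036) were not called.

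The immunity-related GTPases (IRGs), which load onto pathogen vacuoles with GBPs, were read next. In the table, 7 IRG symbols take 9 rows, as Irgm1 and Tgtp2 have 2 gene identifiers each. Of the 9, 8 rose, with a median log2 fold change of 1.07. Gm12250 (2.14), Iigp1 (1.98) and Igtp (1.80) led, and 1 of the Irgm1 rows (0.49) was not called. In 9 of 9 rows sgScramble 3 was the lowest sgScramble tumor and sgKRT19 8 the highest sgKRT19 tumor. Without sgKRT19 8, 3 of the 9 were called, 5 under scaling by library size only and 4 without a trend. Rows of Tgtp1 and Tgtp2 share near-identical sequence and are uncertain.

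Genes of the inflammasome, which GBPs help to activate, moved both ways. Of 8, 5 rose, namely Casp1 (1.44), Il18 (1.16), the adaptor Pycard (1.14), Il1b (0.78) and the pore protein gene Gsdmd (0.37). Aim2, a sensor of cytosolic DNA, fell by 0.86 on the log2 scale, with normalized read counts of 582 to 733 in sgScramble tumors and 326 to 412 in sgKRT19 tumors. Nlrp3 (0.33) and Casp4 (0.46) were not called. Leaving out sgScramble 2, scaling by library size only or fitting without a trend each left 3 of the 5 higher calls.

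Genes that modify or place GBPs were examined next. Of 8 genes of the ATG8 conjugation system, which directs GBPs to vacuoles, Gabarapl2 (0.60) and Atg5 (0.47) rose, Gabarapl1 fell by 0.65 on the log2 scale, and 5 were not called. Without sgKRT19 5 no gene of this list was called higher, 1 was without sgScramble 2, sgScramble 4 or sgKRT19 8 and under scaling by library size only, and 3 were without sgKRT19 6. Of 5 genes for the prenylation that anchors GBP2 and GBP5 to membranes, Fnta (0.65), a subunit shared by both prenyltransferases, was called. Of 6 related GTPase genes, Mx1 (2.04) and Gvin1 (1.14), both interferon-inducible, rose, and Mx2 (-0.079) and the atlastin genes Atl1, Atl2 and Atl3 (-0.38 to 0.29) were not called. In that list 1 gene was called higher without sgKRT19 6, without sgKRT19 8, under scaling by library size only and without a trend, and 3 were without sgScramble 1. In the same list 1 gene was called lower with DESeq2, under scaling by library size only and without sgScramble 1.

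**Figure D5:**
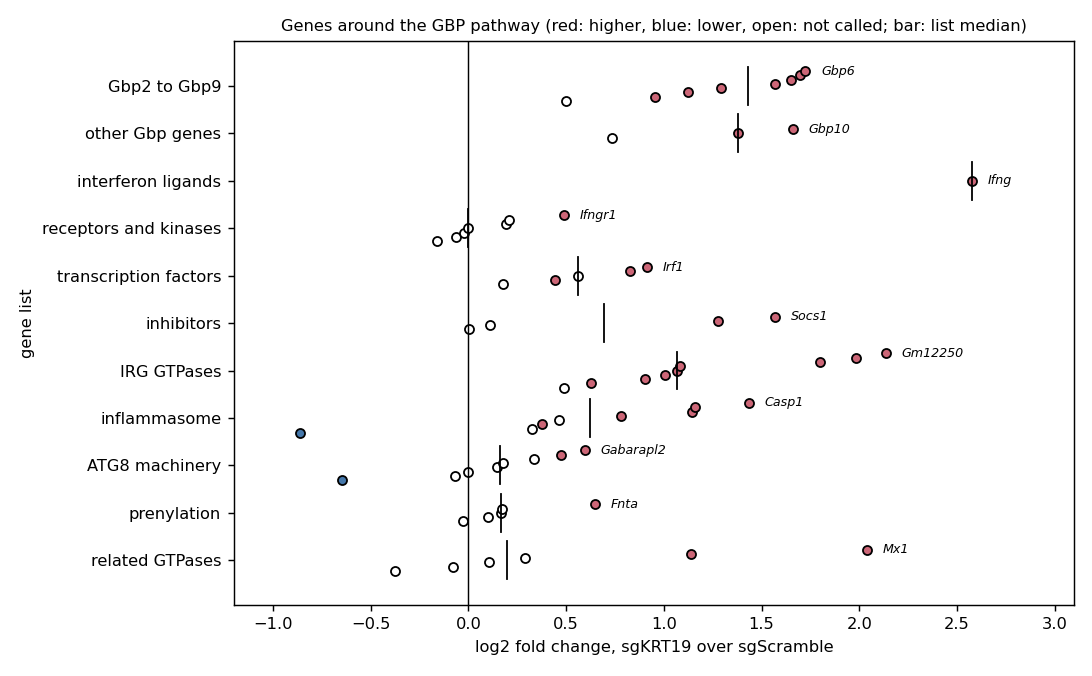
Log2 fold change of sgKRT19 over sgScramble tumors (horizontal axis) for each tested gene of 11 lists (vertical axis), with red for called higher, blue for called lower, open for not called and a bar at the list median. The median is 1.43 for Gbp2 to Gbp9, 1.07 for the IRG GTPases and -0.0031 for the receptors and kinases.

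Most markers of leukocytes, T cells and epithelial cancer cells were also higher in sgKRT19 tumors, whereas those of macrophages and fibroblasts were mixed or not called. The sum of 3 pan-leukocyte genes (Ptprc, Laptm5, Coro1a) was 5663 to 7767 in sgScramble tumors and 9813 to 13415 in sgKRT19 tumors, and all 3 rose. The sum of 5 T cell genes was 310 to 655 and 2029 to 3818, and 4 of the 5 rose (Cd3e, Cd3d, Cd3g and Cd8a). Of 5 macrophage genes, C1qa rose and Mrc1 fell, and the sum was 10974 to 15458 and 12764 to 15475. None of 4 fibroblast genes was called. The 3 NK cell genes summed to 67.6 to 138 and 193 to 299, and 1 of them rose. The 3 dendritic cell genes summed to 103 to 127 and 185 to 243, and 2 rose. Neutrophil genes rose in 2 of 2 tested, endothelial genes in 2 of 3 and muscle genes in 3 of 3. The 4 epithelial genes summed to 113486 to 149308 in sgScramble tumors and 234269 to 245862 in sgKRT19 tumors. Of these, 3 rose, namely Krt18 (log2 fold change 0.97), Krt8 (0.91) and Cdh1 (0.55), and Epcam (0.064) was not called. The part of any of these cells in the rise of the GBP genes was not tested.

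Among the sgKRT19 tumors, the order of the GBP genes was not that of the leukocyte genes. sgKRT19 8 was highest for 8 of 8 members. It was the lowest sgKRT19 tumor for 3 of 3 leukocyte, 5 of 5 T cell and 5 of 5 macrophage genes. It was also lowest for 3 of 4 fibroblast, 2 of 3 dendritic cell and 2 of 4 epithelial genes. For neutrophil and endothelial genes it was lowest in 1 of 2 and 1 of 3, and for NK cell and muscle genes in 0 of 3 each. The share of all genes lowest there was not counted. This tumor was the highest for 3 of 3 NK cell, 2 of 3 muscle and 2 of 4 epithelial genes. The count was 1 of 2 for neutrophil, 1 of 3 for endothelial, 1 of 4 for fibroblast and 0 of 3 for dendritic cell genes. Over all genes tested, 28.8% were highest there. The NK cell gene Klre1 was nearly equal in sgKRT19 5, 6 and 8, at 110, 109 and 113. Replicates have no order of their own, and 3 tumors do not allow a test of such a relation.

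Each member was therefore also set against Ptprc, the gene of the pan-leukocyte protein CD45, within each tumor. The log2 difference of Gbp2 from Ptprc was 3.31, 3.35, 2.99 and 3.05 in sgScramble tumors and 3.40, 3.41 and 4.10 in sgKRT19 tumors. The groups did not overlap, though sgKRT19 5 and 6 lay just above sgScramble 2, and the change was 0.46 (exact two-sided permutation p = 0.0571, the smallest possible, adjusted p = 0.457 over 8 members). Without sgKRT19 8 the change was 0.23.

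For the other members the groups overlapped. The change against Ptprc was 0.53 for Gbp6, 0.51 for Gbp3, 0.38 for Gbp4, 0.10 for Gbp5, -0.070 for Gbp7, -0.24 for Gbp8 and -0.69 for Gbp9 (exact permutation p = 0.114 to 0.857), and for Gbp4 it was 0.0035 without sgKRT19 8. Ptprc itself had a log2 fold change of 1.19. Since the permutation test cannot give less than 0.0571 with 4 against 3 tumors, its p-values do not decide whether any member rose more than Ptprc.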

How the data were processed

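RNA-seq was analyzed for 4 sgScramble and 3 sgKRT19 tumors, grouped by their labels. The authors deposited 1 table of normalized read counts, a signal made by dividing each library's reads per gene by its size factor (genome build mm10 per the submitters' processing notes). The aligner, counter and annotation are not given in the sources used here. The study's methods name a stranded total RNA kit, 76-base single reads and 12 PCR cycles, whereas the labels name polyA RNA. No column belonged to another series (0). Whole reads were recovered for 100% of values (tolerance 0.1 reads). The reads carry no molecular identifiers, so floors cover counting error only.

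Genes reaching a value of 10 in 3 or more libraries were fitted with limma 3.58.1 (R 4.3.3; lmFit, eBayes with trend, group as the only term) on log2(value + 1), with Benjamini-Hochberg adjustment over all genes tested and a threshold of 0.05. The pseudocount understates changes of low genes. limma's fold-change test used 1.5. Single values were compared by exact two-sided permutation (numpy 2.4.6). edgeR 4.0.16 and DESeq2 1.42.0 were run on the recovered reads, beside other pseudocounts, filters and scalings and the omission of each library. The scripts were tested on simulated data. Coding sequences were aligned with Biopython 1.88, and RefSeq promoters were searched for 2 motifs.

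The members, the gene lists and the rule for named genes (all members, the lists, Krt19 and the 5 genes nearest to the members' mean profile) were chosen with earlier results of these data known. Some items are not reported here. Markers came from general knowledge.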

Additional observations from a re-analysis of the deposited data

How the results depend on the processing

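Over 15 alternatives (edgeR, DESeq2, library size only, 2 pseudocounts, 2 filters, no trend and 7 omitted libraries) the count of members called higher was 5 to 7, and none was called lower. Gbp2, Gbp3, Gbp4, Gbp5 and Gbp6 were called in all 15, at log2 fold changes of 1.44 to 1.74, 1.48 to 1.80, 1.28 to 1.71, 1.08 to 1.48 and 1.41 to 1.86, and Gbp9 in none (adjusted p = 0.117 to 0.520 with limma, edgeR or DESeq2). Members past the fold-change test were 0 against a fold of 2, and 2 to 5 with 1 library left out (5 without sgScramble 4).

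Under scaling by library size only, all genes shifted by a median of -0.21 on the log2 scale. Members called higher went from 7 to 5 (Gbp7 and Gbp8 were lost), higher calls over all genes from 3820 to 2177 and lower calls from 3420 to 5727, so 27.5% rather than 52.8% of calls were higher. List medians then turned to -0.056 for the ATG8 genes, -0.049 for prenylation and -0.018 for the related GTPases. With 1 library left out, 2481 to 4103 genes were called higher and 2232 to 3611 lower (lowest without sgKRT19 5 and sgScramble 2). The receptor and kinase median was -0.032 to 0.034, and without sgScramble 2, sgScramble 4, sgKRT19 5, sgKRT19 6 and sgKRT19 8 it was 0.0089, 0.010, 0.034, 0.012 and 0.0043.

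With the mean of 3 leukocyte genes in place of Ptprc, the change was 0.66 for Gbp2, 0.70 for Gbp3 and 0.73 for Gbp6. It was then 0.13 for Gbp7 and -0.50 for Gbp9. Against Ptprc with 1 library left out, Gbp2 was 0.23 to 0.58 and Gbp4 0.0035 to 0.58. Gbp5 was -0.17 to 0.32, Gbp7 -0.33 to 0.18 and Gbp8 -0.60 to 0.013. The causes were not tested. No paired analysis was possible because the groups share no replicate number. Depth does not limit the members, whose precision rests on 4 and 3 tumors.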
